A study of Danio rerio with 4 samples.

Results

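The exocrine pancreas makes the enzymes that digest food in the gut. Acinar cells secrete most proteases as inactive zymogens, which include trypsinogens, chymotrypsinogens, proelastases and procarboxypeptidases, together with lipases and amylase. In zebrafish larvae the pancreas lies beside the gut in the trunk, and these genes are its commonest acinar markers. The level of 10 such genes was described in RNA-seq of tails from *asxl1*+/+ and *asxl1*-/- zebrafish. They are the trypsin genes *prss1* and *prss59.2*, the chymotrypsin genes *ctrb1*, *zgc:112160* and *ctrl*, the elastase genes *cela1.6* and *ela2l*, the carboxypeptidase gene *cpb1*, and the bile salt lipase genes *cel.1* and *cel.2*. These 10 of the 32520 genes counted were taken by name from the study's list of genes that differed between the genotypes. They were thus chosen by the measured difference in counts between *asxl1*-/- and *asxl1*+/+, which is given below as a description, with no p for these genes.

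Tails with the caudal hematopoietic tissue, a site of embryonic blood formation, were taken at 3 days postfertilization (dpf) without any treatment. There were 4 libraries, 2 per genotype, each a pool of about 20 tails, and their labels carry a replicate letter, A or B. All embryos were on the AB background and came from intercrosses of *asxl1*+/- fish, so that the *asxl1*+/+ embryos were the controls. The *asxl1*-/- embryos carried in both copies a CRISPR/Cas9 deletion that shifts the reading frame in a late exon, and the labels do not say which of the study's alleles it was. Unless it says otherwise, the study shows data of its larger deletion. Nothing states that the pools of a genotype came from separate clutches, so that the spread between them may be technical.

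Total counts were 22963847 and 26281738 in *asxl1*+/+ A and B, and 19423797 and 20027260 in *asxl1*-/- A and B. Levels are given as CPM, the usual count relative to the library total, here scaled by the trimmed mean of M values (TMM). The targeted gene had 65.4 and 65.3 CPM in *asxl1*+/+ and 57.2 and 57.6 CPM in *asxl1*-/-, and counts over a whole gene do not show the deletion itself. Skeletal muscle genes summed to between 166926 and 177369 CPM and skin and fin genes to between 46292 and 49899 CPM, as a tail would give. The 10 enzyme genes summed to only 325, 950, 83 and 77 counts in *asxl1*+/+ A, *asxl1*+/+ B, *asxl1*-/- A and *asxl1*-/- B. This is between 0.000384% and 0.00361% of all counts. The library *asxl1*+/+ B stood apart, with more of these counts than the other 3 libraries together. Of the acinar transcription factor genes in the exocrine list below, *ptf1a* and *rbpjl* had few counts in every library. In the same order of libraries, *ptf1a* had 1, 2, 2 and 2 counts and *rbpjl* had 7, 11, 7 and 8. Neither was lower in both *asxl1*-/- libraries than in both *asxl1*+/+ libraries. Both were named after their values were seen. The third, *nr5a2*, which other tissues also express, had between 10.6 and 12.3 CPM. The counts thus hold enzyme transcripts at a trace level, and how they came into pools of tails was not tested. In these bulk samples the number of acinar cells in a pool and the RNA per cell cannot be told apart.

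The summed level of the 10 genes was 14.1 CPM in *asxl1*+/+ A and 36.5 CPM in *asxl1*+/+ B, against 4.23 CPM in *asxl1*-/- A and 3.88 CPM in *asxl1*-/- B. The mean was 25.3 ± 15.9 CPM (SD, n = 2) in *asxl1*+/+ and 4.05 ± 0.246 CPM (SD, n = 2) in *asxl1*-/-, a ratio of 6.25. The genotypes did not overlap, but the spread within a genotype lay almost wholly in *asxl1*+/+. Without *asxl1*+/+ B the ratio was 3.48, and without *asxl1*+/+ A it was 9.02. Each of the 10 genes was lower in both *asxl1*-/- libraries than in both *asxl1*+/+ libraries, which held for 14.6% of the 19970 genes kept by the filter on low counts. This description uses the same values that chose the genes. All 10 passed the filter, and only *cpb1* had at least 10 counts in every library.

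**Figure D1:**
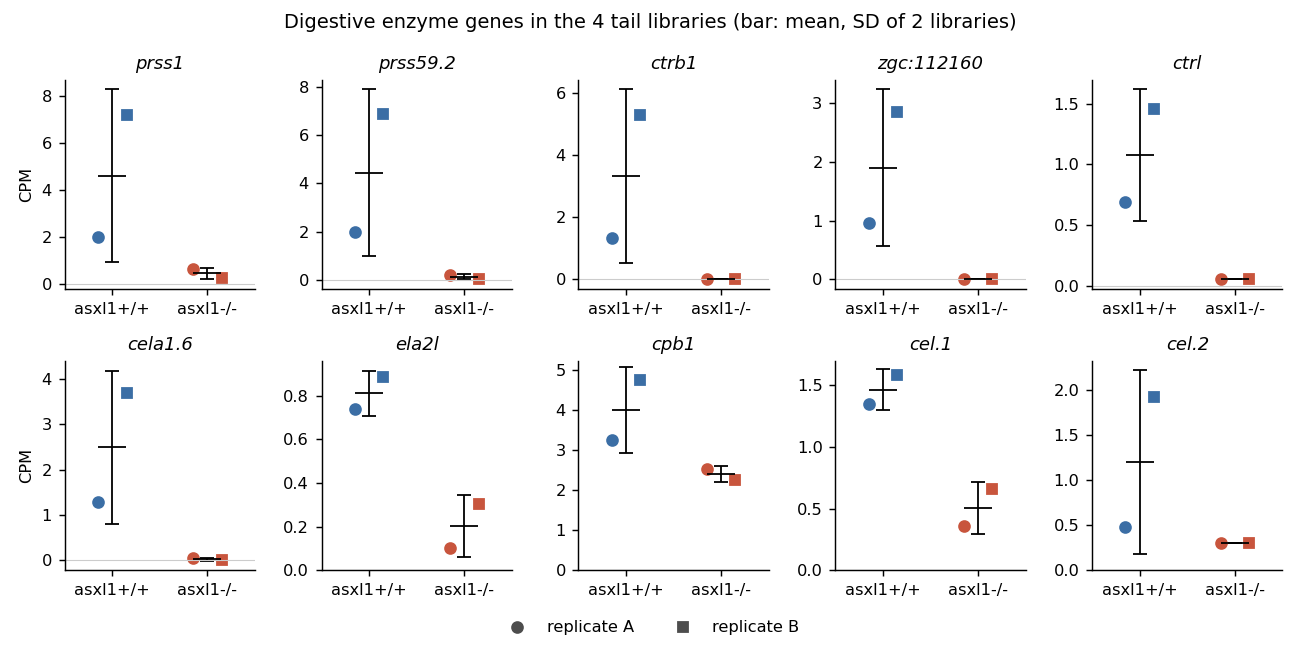
Level in CPM (vertical axes) of each of the 10 digestive enzyme genes in the 4 tail libraries, by genotype, with circles for replicate A, squares for replicate B, and bars for the mean and SD of 2 libraries. Every asxl1-/- point lies below both asxl1+/+ points of its gene, and asxl1+/+ B is the highest point in all 10 panels.

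Trypsin cleaves proteins after lysine and arginine and activates the other pancreatic zymogens. *prss1* (ENSDARG00000042993, GRCz11 chr16:25080764-25085327, minus strand) had 1.99 and 7.19 CPM in *asxl1*+/+ A and B, and 0.611 and 0.252 CPM in *asxl1*-/- A and B. The 17 counts in *asxl1*-/-, 12 in A and 5 in B, stood against 46 and 187 in *asxl1*+/+. The pooled level in *asxl1*+/+ was 11 times that in *asxl1*-/- (exact 95% interval 6.74 to 19.3, which here and below covers counting error only), and the fitted log2 difference was -3.42 (SE 0.68). With a library left out, that difference ran from -4.18 without *asxl1*-/- A to -2.20 without *asxl1*+/+ B. *prss59.2* (ENSDARG00000073742, chr16:26017360-26018694, plus strand) had almost the same counts as *prss1* in *asxl1*+/+, 46 in A and 179 in B. In *asxl1*-/- it had only 4 and 1 counts, and its pooled ratio was 36.2 (15.3 to 113). Its close copy *prss59.1*, 3509 bases away, was named after its values were seen, with 7, 64, 0 and 3 counts in *asxl1*+/+ A, *asxl1*+/+ B, *asxl1*-/- A and *asxl1*-/- B. Counts of near-identical copies are uncertain, because read pairs that map to more than 1 position were not counted, and this holds for the families of *ctrb1*, *cela1.6* and *cel.1* as well.

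Chymotrypsin cleaves after large hydrophobic residues, and all 3 of its genes were at or next to 0 in *asxl1*-/-. *ctrb1* (ENSDARG00000090428, chr7:35075847-35079299, plus strand) had 31 and 138 counts in *asxl1*+/+ A and B, or 1.34 and 5.31 CPM, and 0 counts in both *asxl1*-/- libraries. Set against a limit of 3 counts over both *asxl1*-/- libraries, its pooled *asxl1*+/+ level gave a fold of 45.4. The lower end of the exact interval used for the other genes was 36.5. Both values pool the *asxl1*+/+ libraries, and most of the pooled counts came from *asxl1*+/+ B. *zgc:112160* (ENSDARG00000039730, chr7:35062132-35066457, minus strand), which the symbol table lists as *ctrb.3*, lies 9390 bases from *ctrb1*. It had 22 and 74 counts in *asxl1*+/+, or 0.954 and 2.85 CPM, and again 0 in both *asxl1*-/- libraries. By the same limit its pooled fold was 25.8, with a lower end of the exact interval of 20.6, again mostly from *asxl1*+/+ B. The gene between them, *ctrb.2*, named after its values were seen, had 1 and 8 counts in *asxl1*+/+ and 2 and 3 in *asxl1*-/-. In this cluster *ctrb1* and *zgc:112160* thus had a like pattern, and *ctrb.2* had too few counts to place it. *ctrl* (ENSDARG00000068680, chr15:37820258-37829160, minus strand) had 0.694 and 1.46 CPM in *asxl1*+/+, from 16 and 38 counts, and 1 count in each *asxl1*-/- library. Its pooled ratio was 21.7, with a wide interval from 5.73 to 184.

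Elastases cleave elastin and other proteins. *cela1.6* (ENSDARG00000017314, chr22:7439186-7447391, plus strand) had 1.3 and 3.69 CPM in *asxl1*+/+ A and B, from 30 and 96 counts, and a single count in *asxl1*-/-, in A. The ratio was 101, and with 1 count its interval ran from 17.9 to 4038. Exons of 3 other annotated genes overlap those of *cela1.6*, and pairs on a shared stretch were not counted for any of them, so its level is a lower estimate. No exon of another gene overlaps the exons of the other 9 genes, although the span of a neighbouring gene overlaps that of *ela2l*. *ela2l* (ENSDARG00000056765, chr8:21366771-21372485, minus strand) behaved differently, with 0.737 and 0.885 CPM in *asxl1*+/+ and 0.102 and 0.302 CPM in *asxl1*-/-. Its *asxl1*+/+ libraries lay close together, at 17 and 23 counts, and its pooled ratio was 4.03 (1.86 to 9.96). Its neighbour *ela2*, 3805 bases away and named after its values were seen, had 5, 35, 0 and 4 counts in the same order of libraries as above, so that it had the high *asxl1*+/+ B value that *ela2l* lacked.

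The carboxypeptidase gene had the smallest ratio of the 10. Carboxypeptidase B removes lysine and arginine from the ends of peptides that trypsin has cut. *cpb1* (ENSDARG00000045442, chr24:4755391-4765740, minus strand) had 3.25 and 4.77 CPM in *asxl1*+/+ A and B and 2.55 and 2.27 CPM in *asxl1*-/- A and B. It was the only one of the 10 with more than 20 counts in *asxl1*-/-, 50 in A and 45 in B, against 75 and 124 in *asxl1*+/+, and its pooled ratio was 1.69 (1.31 to 2.18). The *cel* genes encode a lipase that bile salts activate and that cleaves cholesteryl esters and triglycerides. *cel.1* (ENSDARG00000017490, chr21:11401247-11411365, plus strand) had 1.34 and 1.58 CPM in *asxl1*+/+, and 0.356 and 0.655 CPM in *asxl1*-/-, a pooled ratio of 2.90 (1.75 to 5.02). *cel.2* (ENSDARG00000029822, chr21:11385031-11393979, plus strand), 7268 bases away, had 0.477 CPM in *asxl1*+/+ A, 1.92 CPM in *asxl1*+/+ B, and 0.305 and 0.302 CPM in *asxl1*-/-. The value of *asxl1*+/+ A, from 11 counts, thus lay near those of *asxl1*-/-, from 6 counts each, and the pooled ratio of 4.09 (2.18 to 8.35) was set largely by the 50 counts of *asxl1*+/+ B.

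Over the 10 genes, the median fitted log2 difference between *asxl1*-/- and *asxl1*+/+ was -3.85, and over all 19970 genes it was 0.00075. The genes were chosen by this difference, so that the gap between the medians is a description only. Setting *ctrb1* and *zgc:112160* at their folds by the limit of 3 counts left the 10-gene median at this value. Both folds lie beyond the middle genes. Over the whole table, the quasi-likelihood test of edgeR on genotype called 12 genes at a false discovery rate (FDR) below 0.05, which is 0.0601%, and 3.08% had an unadjusted p below 0.05. Its calls are not given for the 10 genes, since this difference chose them.

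Divided by exonic length, the levels in *asxl1*+/+ ran from 5.27 CPM per kb for *prss1* and 5.05 CPM per kb for *prss59.2* down to 0.496 CPM per kb for *cela1.6*. In between were *cpb1* at 1.81, *ctrb1* at 1.73, *zgc:112160* at 1.2, *cel.1* at 0.732, *cel.2* at 0.657, *ctrl* at 0.589 and *ela2l* at 0.576 CPM per kb. The exonic length of *cela1.6*, 5031 bases, was the longest of these genes. It includes stretches shared with other genes, where pairs were not counted, so its last place rests partly on this length. With the *asxl1*+/+ libraries so far apart, no gene in this order differed from the next by more than the larger SD of that pair. In *asxl1*-/- the highest was *cpb1*, at 1.08 CPM per kb, ahead of *prss1* at 0.495 CPM per kb by more than the SD of either, and the remaining genes were between 0 and 0.253 CPM per kb.

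The enzymes were therefore not in the same proportions in the libraries of the genotypes. These shares restate the unequal ratios of the single genes, from the same counts that chose them. Their intervals cover counting error only, not the spread between pools. *cpb1* made up 23.1% of the summed counts in *asxl1*+/+ A (exact Clopper-Pearson 95% interval 18.6 to 28) and 13.1% in *asxl1*+/+ B (11 to 15.4). In *asxl1*-/- A and B it made up 60.2% (48.9 to 70.8) and 58.4% (46.6 to 69.6). *prss59.2* had 14.2% and 18.8% of the counts in *asxl1*+/+ and 4.82% and 1.3% in *asxl1*-/-. The share of *ctrb1*, 9.54% and 14.5% in *asxl1*+/+, was 0% in *asxl1*-/-, where 3 of 77 counts would be 3.90% in *asxl1*-/- B. *cel.1* moved the other way in *asxl1*+/+, with 9.54% in A (6.57 to 13.3) and 4.32% in B (3.11 to 5.81). The counts of *asxl1*+/+ B were thus not a scaled copy of those of *asxl1*+/+ A, as *cpb1* and *cel.1* took smaller shares of them, by more than counting error. Left without *cpb1*, the summed level was 12.9 times as high in *asxl1*+/+ as in *asxl1*-/-.

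**Figure D2:**
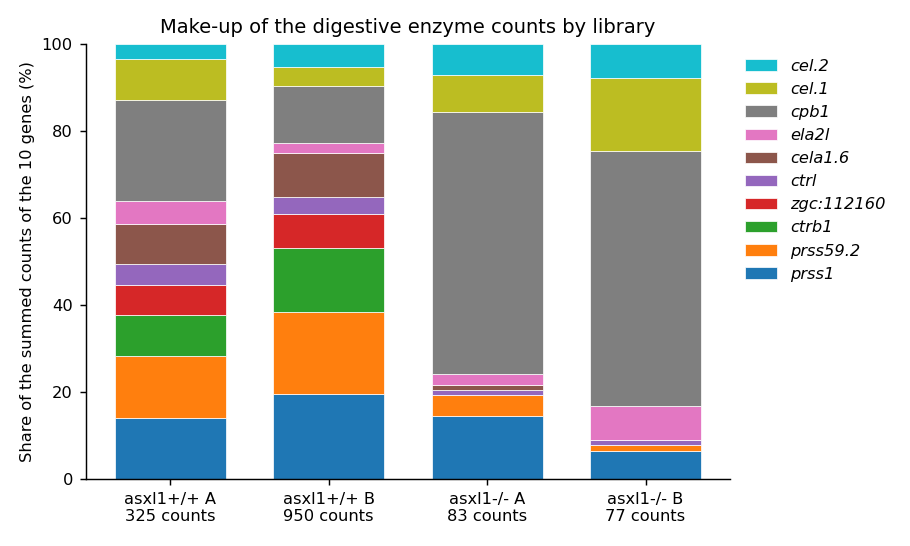
Share in percent (vertical axis) of each digestive enzyme gene in the summed counts of the 10 genes, one stacked bar per library, with the summed counts written below each bar. cpb1 takes 23.1% and 13.1% of the counts in asxl1+/+ A and B and 60.2% and 58.4% in asxl1-/- A and B, where ctrb1 and zgc:112160 have none.

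The comparison of the replicate letters did not choose the genes, but it uses the same 4 libraries and is not independent of that choice. A high value in *asxl1*+/+ B raises both the genotype difference and the letter difference. Apart from *cpb1*, the 10 genes had too few counts in *asxl1*-/- to pass the filter without *asxl1*+/+. The percentages of all genes given here are thus no like background. What the libraries of a letter share is not stated. In a model with genotype and letter, 6 of the 10 genes were higher in B by the edgeR quasi-likelihood test at an FDR below 0.05, where 4.27% of all genes were and 8.53% differed in either direction. None of the 6 had more counts in B than in A in *asxl1*-/-, where *ctrb1* and *zgc:112160* had none at all. The calls thus compare *asxl1*+/+ B with *asxl1*+/+ A, 1 library with 1 other, and are no difference shared by both genotypes. They were *ctrb1*, with a log2 difference of 1.97 (SE 0.32, FDR 1.00e-07), *prss59.2* with 1.63 (SE 0.27, FDR 9.02e-08), *zgc:112160* with 1.57 (SE 0.41, FDR 0.0035), *cel.2* with 1.5 (SE 0.44, FDR 0.0129), *prss1* with 1.47 (SE 0.25, FDR 2.83e-07) and *cela1.6* with 1.43 (SE 0.36, FDR 0.00164). The other 4 did not pass. *ctrl* had a difference of 1.01 (SE 0.49, FDR 0.223), *ela2l* 0.49 (SE 0.50), *cel.1* 0.39 (SE 0.37) and *cpb1* 0.29 (SE 0.20). The median over the 10 was 1.45, against -0.001 over all genes. DESeq2 called 0 of the 10 in the same model, with 0 at an unadjusted p below 0.05, where it called 0.406% of genes higher in B. The model leaves 1 residual degree of freedom, and the *asxl1*+/+ libraries held 1275 of the 1435 counts. For *ctrb1* and *zgc:112160*, at 0 in both *asxl1*-/- libraries, the model fits the *asxl1*+/+ counts exactly. Their SE and FDR thus rest on a spread taken from other genes.

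Within *asxl1*+/+, all 10 genes were higher in B than in A, which held for 50.2% of all genes, but by unequal factors. B over A was 3.95 (exact 95% interval 2.66 to 6.04) for *ctrb1*, 3.61 (2.60 to 5.09) for *prss1*, 3.45 (2.48 to 4.88) for *prss59.2* and 4.03 (2.07 to 8.59) for *cel.2*. It was 2.98 (1.83 to 5.05) for *zgc:112160*, 2.84 (1.87 to 4.43) for *cela1.6* and 2.11 (1.15 to 4.05) for *ctrl*. It was lower for *cpb1*, at 1.47 (1.09 to 1.98), *ela2l*, at 1.2 (0.614 to 2.39), and *cel.1*, at 1.17 (0.718 to 1.94). The intervals of these 3 did not overlap those of *ctrb1*, *prss1* and *prss59.2*.

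Within *asxl1*-/-, 4 of the 10 genes had fewer counts in B than in A, namely *prss1*, *prss59.2*, *cpb1* and *cela1.6*, the last with 1 count against 0. The counts of *ctrl* and *cel.2* were equal in A and B, those of *ela2l* and *cel.1* were higher in B, and 2 genes were at 0 in both libraries. *prss1* was lower in B, at 0.412 times A, with an interval of 0.114 to 1.26 that included 1. *cpb1*, with the most counts there, was at 0.890 times A (0.582 to 1.36). For the sum of the 10 genes, B over A was 2.59 (2.28 to 2.95) in *asxl1*+/+ and 0.918 (0.664 to 1.27) in *asxl1*-/-. The surplus in B was thus measured in the *asxl1*+/+ library. In *asxl1*-/- the interval of the sum included 1 and lay below that of *asxl1*+/+, with counting error alone considered.

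**Figure D3:**
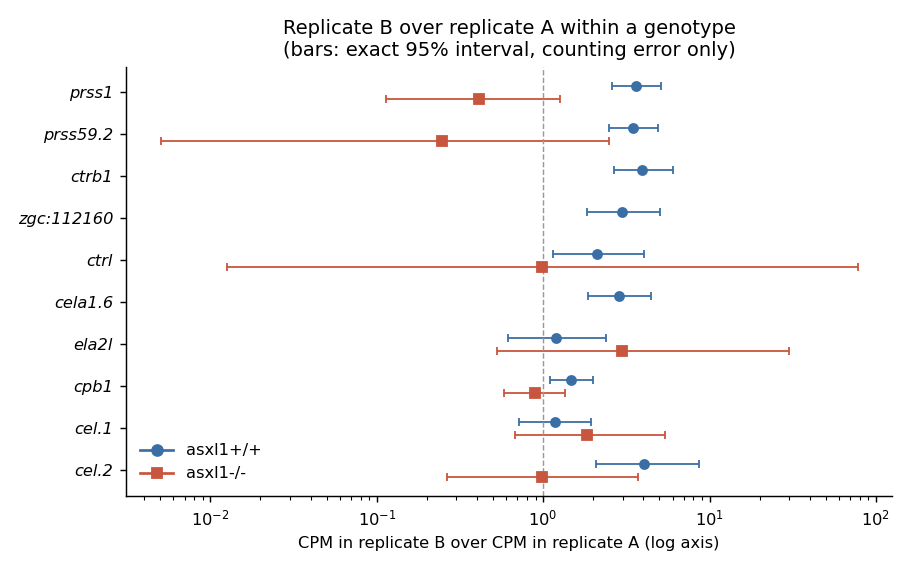
CPM in replicate B divided by CPM in replicate A (horizontal log axis) for each digestive enzyme gene, with circles for asxl1+/+, squares for asxl1-/- and bars for exact 95% intervals of counting error; no asxl1-/- ratio is drawn for ctrb1, zgc:112160 and cela1.6, which have 0 counts in B. In asxl1+/+ the points run from 1.17 for cel.1 to 4.03 for cel.2, and in asxl1-/- every interval includes 1.

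Other exocrine pancreas genes were counted from a list of 41 symbols, of which 30 matched a gene. Without the 10 genes and the 3 transcription factor genes *ptf1a*, *rbpjl* and *nr5a2*, 17 genes remained, with 94, 271, 50 and 45 counts in *asxl1*+/+ A, *asxl1*+/+ B, *asxl1*-/- A and *asxl1*-/- B. Their summed level was 4.07, 10.4, 2.55 and 2.27 CPM in the same order. They were thus highest in *asxl1*+/+ B as well, at 2.56 times *asxl1*+/+ A, and their mean in *asxl1*+/+ was 3.01 times that in *asxl1*-/-. With the 3 transcription factor genes kept, the summed level of the 20 genes gave 1.29 and 1.35 for these ratios. Of the 17, 12 were highest in *asxl1*+/+ B, against 25.7% of the genes kept by the filter, and 8 were lower in both *asxl1*-/- libraries than in both *asxl1*+/+ libraries, against 14.6%. Of the others, 2 had no count in any library. Only 3 of the 17 passed the filter on low counts, so that the shares over filtered genes are no like background. Some of the 8 had at most 2 counts in every library, too few to resolve their order. For genotype, edgeR called 0 of the 3, with 1 at an unadjusted p below 0.05, and for letter 0, with 0 below 0.05. DESeq2 called 0 in either comparison. *pdia2*, a protein disulfide isomerase of the pancreas, had 1.3, 2.58, 0.916 and 0.252 CPM. Named after their values were seen, the carboxypeptidase gene *cpa1* had 0, 11, 0 and 0 counts and the amylase gene *amy2al1* had 19, 17, 11 and 8 counts, so that they differed in pattern. The nuclear receptor gene *nr5a2*, which other tissues also express, stayed between 10.6 and 12.3 CPM in all libraries.

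The summed levels of markers of other organs varied less between the libraries than those of the enzyme genes, although single genes in these lists differed. Of the 28 liver and plasma genes, such as *apoa1b* and *apoa2*, which the yolk syncytial layer also expresses, the summed level was 12665 CPM in *asxl1*+/+ A and 13744 CPM in *asxl1*+/+ B, and 12731 and 12753 CPM in *asxl1*-/-. The ratio of B to A in *asxl1*+/+ was 1.09 for this list, with 6 of the 28 genes higher in B by the edgeR test, or more than the 4.27% of all genes, and 1 lower. The 16 intestine genes summed to between 630 and 679 CPM, with the ileal fatty acid binding gene *fabp6* highest in *asxl1*+/+ A, at 2.34 CPM. The 12 endocrine pancreas genes summed to 94.8, 94.7, 82.4 and 86.7 CPM, nearly all from *chgb*, *isl1*, *chga* and other genes that neurons also express. Of the 12, 6 were lower in both *asxl1*-/- libraries than in both *asxl1*+/+ libraries, against 14.6% of the genes kept by the filter, which 8 of the 12 passed. For some of the 6 the gap was slight. The lower *asxl1*+/+ and higher *asxl1*-/- values were 9.268 and 9.264 CPM for *pcsk2*, and 17.82 and 17.77 CPM for *isl1*. The defining hormone genes were named after their values were seen. *sst2* was at 0 in every library and *ins* had 4, 0, 3 and 0 counts. *gcga*, the glucagon gene, had 16, 21, 5 and 6 counts, so that it was highest in *asxl1*+/+ B and lower in both *asxl1*-/- libraries, like the enzyme genes, with a log2 difference of -1.42 (SE 0.45) that edgeR did not call. The 22 genes of protein folding and translocation in the endoplasmic reticulum, which acinar cells use heavily, summed to 1560, 1438, 1685 and 1470 CPM. At an FDR below 0.05, the edgeR letter test called 5 of them lower in B and 0 higher, against 851 lower of all 19970 genes. Over these lists and those of muscle and skin, the edgeR quasi-likelihood test on genotype called 0 of the 101 genes kept by the filter, with 27 at an unadjusted p below 0.05, a larger share than the 3.08% of all genes, while the edgeR exact test called 3 and DESeq2 called 0. The part of these cell types in the enzyme levels was not tested.

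**Figure D4:**
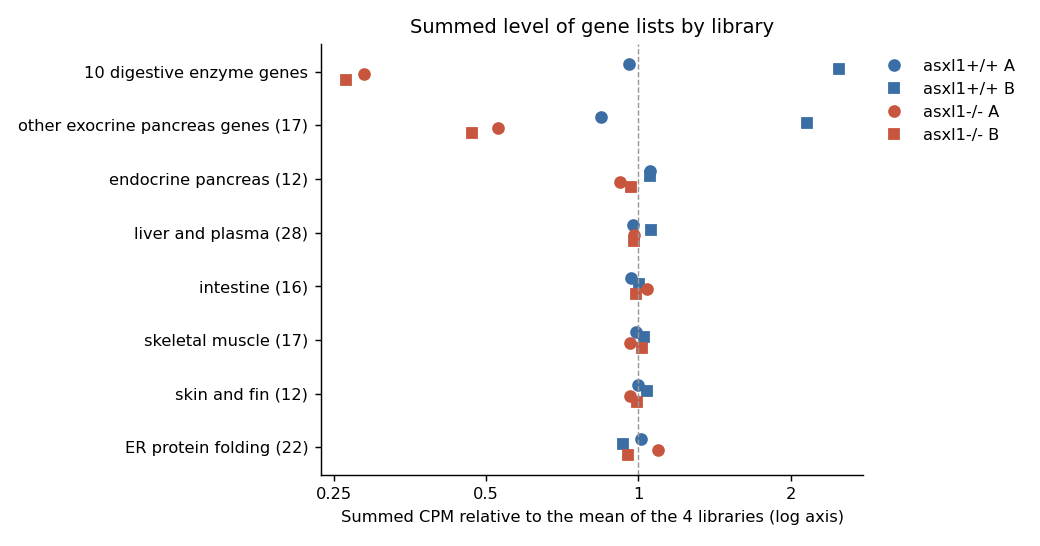
Summed CPM of each gene list in each library relative to the list's mean over the 4 libraries (horizontal log axis), with blue for asxl1+/+, red for asxl1-/-, circles for replicate A and squares for replicate B. The 10 digestive enzyme genes and the 17 other exocrine genes, taken without the transcription factor genes, spread widely with asxl1+/+ B highest, whereas the other 6 lists lie close to 1.

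Some neighbours of the enzyme genes on the chromosome, named after their values were seen, had no such differences. *MRPL17*, 2192 bases from *prss59.2*, had 271, 343, 247 and 248 counts in the 4 libraries. *ATP6V0D1*, 7070 bases from *ctrb1*, had 903, 1046, 807 and 807 counts, and *GTF3C5*, 1923 bases from *cel.2*, had 135, 155, 117 and 128 counts. In all 3, *asxl1*+/+ B had the most counts and also the largest library total. Other neighbours did differ, such as *si:dkey-57c15.1*, 38715 bases from *cela1.6*, with 20, 11, 6 and 4 counts. Neighbours with and without a difference were not counted.

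Of 19435 genes with at least 50 counts in total, the pattern over the 4 libraries was compared with that of the summed enzyme level, by the distance between log2 CPM values centred on their mean (prior count 0.5). The nearest gene was *arhgef3l*, at a distance of 1.08, with 14.6, 14.2, 3.61 and 3.12 CPM. It followed the genotypes but not the gap between the *asxl1*+/+ libraries. The next was ENSDARG00000113150 on chromosome 3, which has no symbol in the table, at 1.28, with 4.42, 6.15, 1.63 and 2.22 CPM. *pdia2* was next at 1.35, followed by *noc2l* at 1.35, with 19.5, 27.2, 8.86 and 9.82 CPM, and *fbxo44.10* at 1.4, with 3.38, 2.23, 0.458 and 0.403 CPM. Over 4 libraries such a distance is a description only. Of these 5, *arhgef3l*, *noc2l* and *fbxo44.10* lie on chromosome 23, which carries 0 of the 10 enzyme genes.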

How the data were processed

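RNA-seq of 4 pools of tails was analysed. Per the labels and methods, the authors aligned reads with STAR (GRCz11), and featureCounts 1.6.4 gave the pairs on Ensembl 96 exons, without strand and without pairs on more than 1 gene or position. They deposited raw counts per gene, without normalization, for 32520 genes. Members were matched by the identifiers of the study's gene list, list genes by the symbol table supplied, which names 29201 genes.

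The deposited counts were analysed with edgeR 4.0.16 in R 4.3.3. TMM scaling was applied after filterByExpr, by genotype, which left 19970 genes. The quasi-likelihood test with Benjamini-Hochberg adjustment over all genes kept was fitted on genotype, and on letter with genotype as covariate, with a threshold of FDR 0.05. DESeq2 1.42.0 was run without independent filtering. The scripts were tested on simulated data. Ratio intervals are exact and cover counting error only. A count of 0 was given a limit of 3 counts. The 10 members, the 5 genes nearest in pattern and some list genes at a mean of at least 1 CPM were named. Most list genes at that level were not named, and no fixed rule picked between them. Others are marked as named after their values were seen. The members and lists were chosen with earlier results of these data known. The alternatives were another filter, scaling, tool or block, and each library left out. No sequences were used here.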

Additional observations from a re-analysis of the deposited data

Results flagged for a closer look

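The ratio of replicate B to replicate A differed between the genotypes. For *prss1* it was 3.61 in *asxl1*+/+ and 0.412 in *asxl1*-/-, and for the sum of the 10 digestive enzyme genes it was 2.59 and 0.918. The counting intervals of the genotypes did not overlap in either case, and with 1 library per letter and genotype this difference was not tested.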

How the results depend on the processing

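The number of genes called between genotypes was 12 and became 301 with the replicate block, 53 with the edgeR exact test, 27 with DESeq2 and 19 without a filter beyond 1 count in total. With a library left out it ran from 9 to 80, reaching 67 without *asxl1*-/- A and 80 without *asxl1*-/- B. A genotype left with 1 library takes its spread from the other. The replicate block called 32 of the 101 fitted genes of the other organ lists, against 1.51% of all genes. Deviations from the genotype means correlated at 0.27 between libraries of a letter, over 2 letters, and nothing states that a letter pairs libraries. The number called between letters was 1703 and became 558 without a genotype term and 156 with DESeq2, each with 0 enzyme genes. Without TMM factors it was 1757, split into 655 higher and 1102 lower in B, against 852 and 851. The summed ratio of 6.25 ran from 3.48 to 9.02 with a library left out and was 12.9 without *cpb1*. The cause of these changes was not tested. Of 90 alternative log2 differences of single enzyme genes between genotypes, 0 turned direction. This is no test, since the difference chose the genes. Each gene was also lower in both *asxl1*-/- libraries than in both *asxl1*+/+ libraries, so that leaving a library out could not turn it. With *ctrb1* and *zgc:112160* set aside, the fold moved by over 1.5 times without *asxl1*+/+ A for *prss1*, *prss59.2* and *cel.2*, without *asxl1*+/+ B for *prss1*, *prss59.2*, *ctrl* and *cela1.6*, without *asxl1*-/- A for *prss1*, *prss59.2* and *cela1.6*, and without *asxl1*-/- B for *prss59.2*, *cela1.6* and *ela2l*. *cel.2* could not be fitted without *asxl1*+/+ B. Of 30 between letters, 6 lost their call, all with DESeq2. The 30 do not include the model without a genotype term, or the filter of 10 counts in every library, which only *cpb1* passed. The depth limits *ctrb1*, *zgc:112160*, *ctrl*, *cela1.6* and *prss59.2*, which had at most 5 counts over both *asxl1*-/- libraries.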
